A study of Drosophila melanogaster with 36 samples.

Results

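The gustatory receptor (Gr), odorant receptor (Or) and ionotropic receptor (Ir) genes of Drosophila melanogaster are followed here through arsenite stress and recovery in a cell line that is not of sensory origin. They were taken as every gene symbol in the count files that begins with Gr, Or or Ir followed by a digit. This gave 179 of the 17137 genes counted, of which 60 were Gr, 59 Or and 60 Ir genes. All libraries came from S2R+ cells, a semi-adherent line of embryonic origin with haemocyte-like features. The 36 libraries form 12 groups of 3. Each of 4 sets of cells holds an untreated control, a stress group given 0.5 mM sodium arsenite for 3 h, and a recovery group that was washed after the same stress and left in fresh medium for another 3 h. The sets are cells with RNAi against rasputin (Rin), which encodes the fly homologue of the stress granule protein G3BP, cells with Mock RNAi, wild-type (WT) cells without RNAi, and Click-iT captures of labelled RNA on beads. The Rin, Mock and WT libraries hold poly(A) RNA and the Click-iT libraries start from total RNA. What the mock treatment consisted of is not given in the sources used here, nor is which RNA was labelled for how long.

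Gr and Or proteins are unrelated to mammalian taste and smell receptors and form ion channels with many membrane spans. Gr proteins are used mainly by taste neurons for sugars and bitter compounds, and Gr21a with Gr63a forms the carbon dioxide receptor of the antenna. Or proteins work together with the co-receptor Orco. Ir proteins are relatives of ionotropic glutamate receptors, work with co-receptors such as Ir25a, Ir8a and Ir76b, and serve smell, taste, and the sensing of temperature and humidity. Most of these genes are known for expression in a few sensory neurons.

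Assigned reads ranged over 6897154 to 11211712 in the Rin and Mock libraries, 6121664 to 8940613 in the WT libraries and 169760 to 2746277 in the Click-iT libraries. The spread between replicates, as the common biological coefficient of variation, was 6.49% in the joint fit of Rin and Mock cells, 2.85% in WT cells and 42.8% in the captures. The Rin cells kept 32.4% of the rin level of Mock cells in control, 24.8% in stress and 23.7% in recovery. Of 12 haemocyte markers, 9 were above 1 CPM (read counts scaled to a common library size) in each poly(A) group, although NimC1 was at 0 in WT control cells. Of 10 neuron markers, 7 to 10 were above 1 CPM in each poly(A) group, and elav averaged 18.02 CPM in WT control cells. Nothing in the labels says that replicates came from separate cultures, so p-values measure the spread between these libraries, which may be technical. The Click-iT captures varied widely within a group, with 391, 157.7 and 1550 CPM over all receptor genes in the stress captures and 1528, 238 and 900 CPM in the recovery captures.

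Most receptor genes were silent or close to it. No read fell on 27 of the 179 genes in any of the 36 libraries, of which 19 were Gr, 7 Or and 1 Ir. In the 27 poly(A) libraries 42 genes had no read. A further 67 genes had 1 to 9 reads over all libraries together, and 44 had at least 10 in all but never 10 in a single library. The remaining 41 genes reached 10 reads in at least 1 library, and 25 of them passed the filter on low counts in at least 1 fit. These 25 comprise 11 Gr, 8 Or and 6 Ir genes. The filter keeps a gene that is high in any single group of libraries, so counts over the genes that passed describe them and do not stand for all 179.

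Levels were compared between genes per length, as RPKM (CPM per kilobase of exon). In control cells of each poly(A) set the same pair led. Ir76a, which senses phenylethylamine together with Ir76b and Ir25a, averaged 18.6 ± 1.6 RPKM in Rin, 20.2 ± 0.78 in Mock and 22.9 ± 1.1 in WT control cells (SD, n = 3 each). Gr61a, a sugar receptor, followed with 13.4 ± 1.6 RPKM in Rin, 12.6 ± 0.52 in Mock and 13.7 ± 1.0 in WT control cells. Ir62a stood at 7.96 ± 0.63 RPKM in Rin, 6.63 ± 2.1 in Mock and 7.45 ± 1.0 in WT control cells. Next to it in WT control cells was Or19b with 7.17 ± 0.38 RPKM, a difference within the spread of the replicates. The partners that the expressed receptors use in neurons were scarce. Ir76b had no read in any of the control libraries of the 3 poly(A) sets, Ir25a had 15 reads in the 3 Rin, 5 in the 3 Mock and 10 in the 3 WT control libraries, and Orco averaged at most 0.300 CPM in any poly(A) group.

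**Figure D1:**
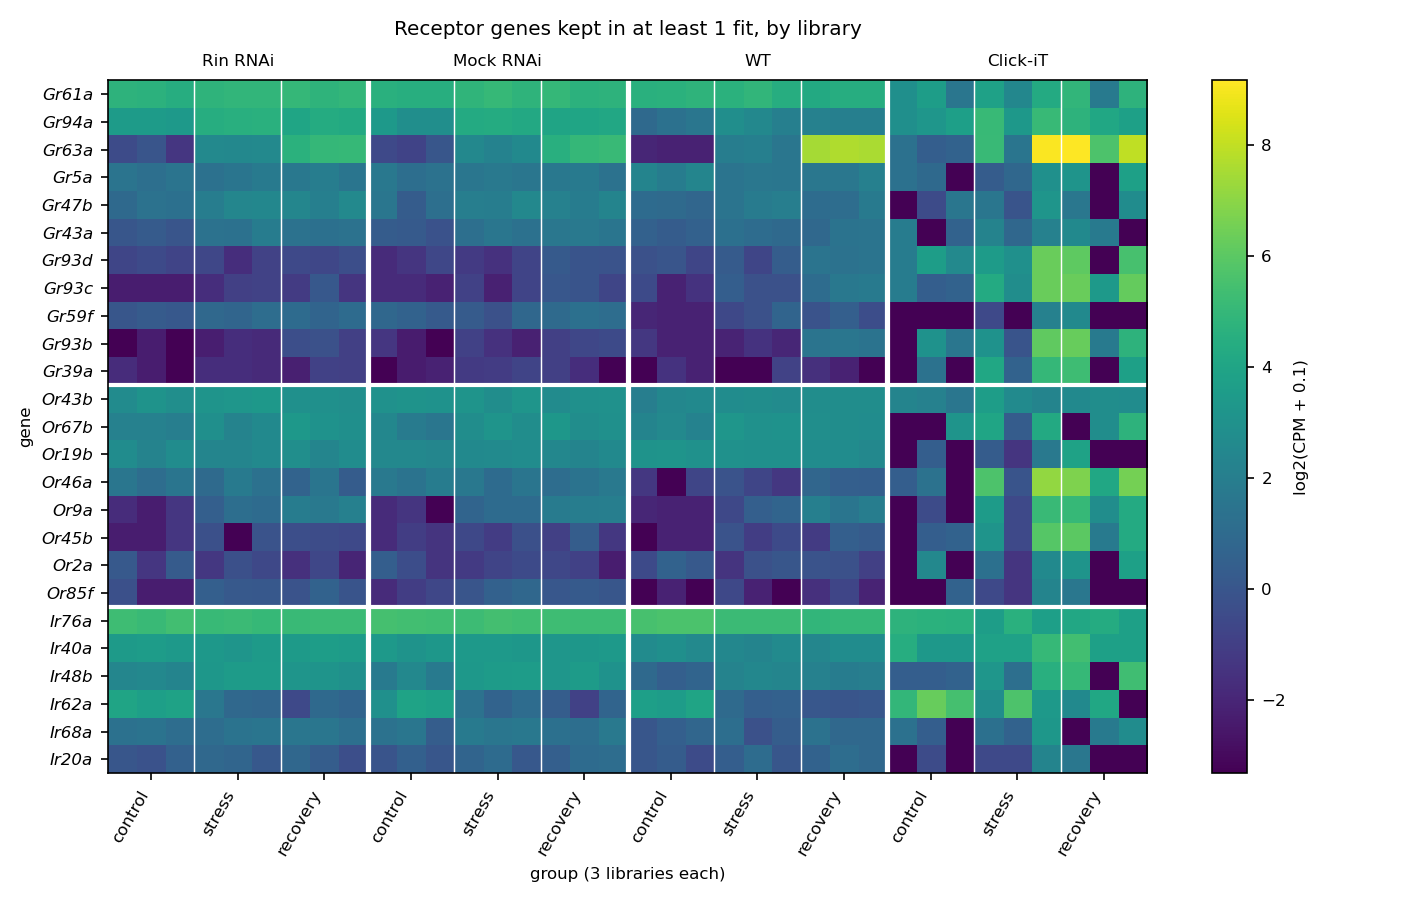
Level of the 25 receptor genes that passed the filter in at least 1 fit, as log2(CPM + 0.1), with genes down the page and the 36 libraries across, grouped into Rin, Mock, WT and Click-iT sets with control, stress and recovery in order. Ir76a and Gr61a are high throughout the poly(A) sets, Gr63a brightens through stress to recovery, and Ir62a dims.

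Receptor genes moved in both directions under arsenite, and more of the called genes were higher than lower. In Rin cells 12 of the 20 receptor genes tested were called in stress against control, 10 higher and 2 lower. Of all genes tested there, 61.2% were called, 30.4% higher and 30.8% lower. In Mock cells 10 of 20 were called, 9 higher and 1 lower, against 58.8% of all genes, 29% higher and 29.8% lower. In WT cells 10 of 19 were called, 7 higher and 3 lower, against 60.3% of all genes, 30.3% higher and 30% lower. The total shares were near the background in each set. Higher calls made up a larger share and lower calls a smaller share of the receptor genes than of all genes in each set, a difference that was not tested. All calls are edgeR quasi-likelihood tests with Benjamini-Hochberg adjusted p under 0.05 over all genes tested. The median log2 fold change of the receptor genes tested was 0.42 in Rin, 0.39 in Mock and 0.34 in WT cells, where the median over all genes tested lay near 0. Genes near silent in control, such as Gr63a, Or9a, Or85f and, in WT cells, the Gr93 genes, pass the filter only through the groups in which they are high. In WT cells Ir20a, low in control, also passed through treated libraries alone. The filter thus sets part of this median and of the split by direction. Scaling by total library size in place of TMM lowered the median of all genes by 0.099 to 0.281 on the log2 scale for stress or recovery against control in the poly(A) sets. The genes that lose their call under it are given where they are described. In these bulk samples fewer cells that make an RNA and less of it per cell cannot be told apart.

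Recovery against control called 11 of 20 receptor genes in Rin cells, 10 higher and 1 lower, against 69.5% of all genes, 35.2% higher and 34.3% lower. It called 10 of 20 in Mock cells, 9 higher and 1 lower, against 65.8%, 33.1% higher and 32.8% lower. It called 15 of 19 in WT cells, 11 higher and 4 lower, against 68.7%, 35.2% higher and 33.5% lower. Called higher in stress in all 3 poly(A) sets were 6 genes, Gr47b, Gr63a, Gr94a, Ir48b, Or67b and Or9a, of 12 called higher in any of them. In recovery 6 of 15 were called higher in all 3, with Gr43a in the place of Gr47b. Ir62a was the single receptor gene called lower in all 3 sets, in stress and in recovery. The shares of all genes called in the same direction in all 3 sets are not given here, so these shared counts are not read further. Ir40a and Ir68a, tested in all 3 poly(A) sets, and Or2a and Or46a, tested in Rin and Mock cells, were called in no comparison within a set. Gr39a and Or45b passed the filter in the captures alone. Without the filter on low counts, Or46a was called in WT recovery at 2.29 on the log2 scale, and Or45b in WT stress (2.52), WT recovery (3.07) and Rin recovery (1.84).

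**Figure D2:**
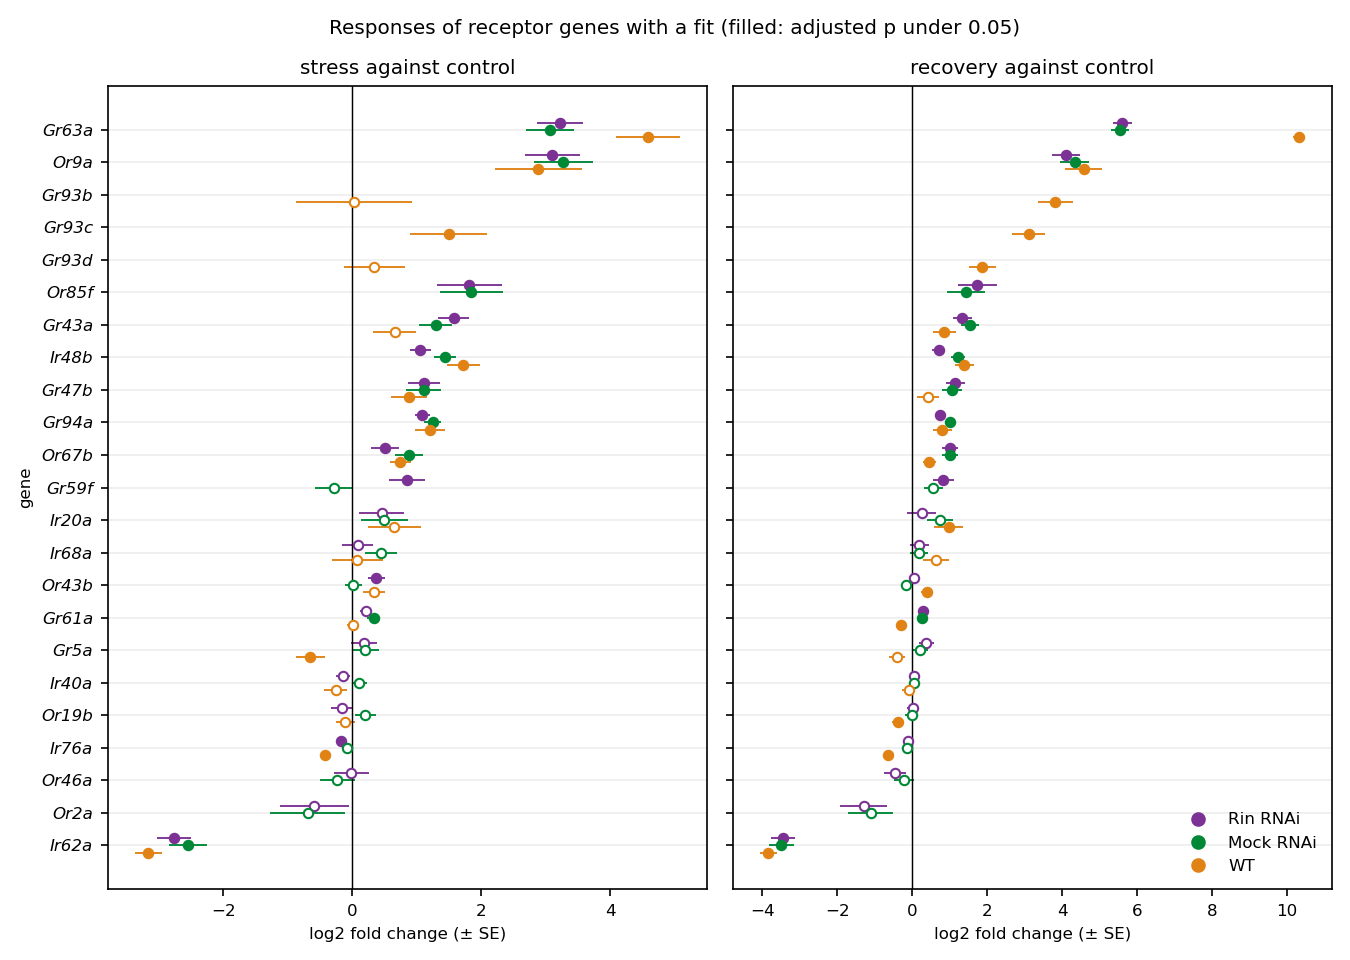
Log2 fold change of the fitted receptor genes in stress and in recovery against control, in Rin, Mock and WT cells, with error bars of 1 SE and filled points for adjusted p under 0.05. The SE is derived from the F statistic of the test and can be too narrow where control reads are few. Gr63a and Or9a lie farthest to the higher side and Ir62a to the lower side in each set.

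Gr63a, the carbon dioxide receptor subunit, had the largest change in recovery in each poly(A) set and the largest in WT stress, while in Rin and Mock stress it was close to Or9a. In Rin cells it was at 0.613, 0.897 and 0.297 CPM in control, 5.86, 5.52 and 5.80 CPM in stress, and 25.3, 31.9 and 32.8 CPM in recovery. In Mock cells it was at 0.575, 0.476 and 0.926 CPM in control, 5.59, 4.58 and 5.94 CPM in stress, and 23.3, 31.4 and 35.8 CPM in recovery. In WT cells it was at 0.152, 0.127 and 0.126 CPM in control, 3.81, 4.05 and 2.86 CPM in stress, and 182, 209 and 191 CPM in recovery. The groups did not overlap at any step in any set, and the WT recovery libraries stood above all others of the poly(A) sets.

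The log2 fold change of Gr63a in stress was 3.22 in Rin, 3.06 in Mock and 4.59 in WT cells by edgeR. Gr63a passed the filter only through stress and recovery libraries, so its fitted values are a description. In recovery the log2 fold change was 5.61 in Rin, 5.55 in Mock and 10.33 in WT cells. The WT control libraries held only 3 Gr63a reads together, 1 in each, so the size of the WT change is loosely fixed. As a ratio of depth-corrected read sums it was 26.9 in stress, with a 95% interval of 8.87 to 133.1. In recovery 4588 reads against 3 gave a ratio of 1444, with an interval of 493.9 to 7006. These exact conditional intervals cover counting error only. Between stress and recovery Gr63a rose again, by 2.38 in Rin, 2.49 in Mock and 5.74 in WT cells on the log2 scale.

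In WT recovery Gr63a reached 132 ± 9.3 RPKM (SD, n = 3) and rank 554 of the 17068 genes with a known length, against rank 9577 in WT control cells. It took 58.5 to 61.5% of all receptor reads in the WT recovery libraries, compared with 0.0917 to 0.120% in WT control libraries. The other receptor genes together stayed between 120.5 and 138 CPM in all 9 WT libraries, but this sum holds opposite moves. The Ir genes fell from 70.5 to 75.9 CPM in WT control to 48.7 to 53.5 CPM in WT recovery. The Or genes rose there from 19.7 to 23.0 CPM to 29.5 to 32.3 CPM. Without Gr63a the sum rose from 139.6 to 147.1 CPM in Rin control to 163.2 to 165.6 CPM in Rin recovery. In Mock cells it rose from 133.2 to 142.3 CPM to 158.1 to 164.3 CPM. Its known partner Gr21a had no read in the 9 WT libraries and never more than 2 in any library.

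**Figure D3:**
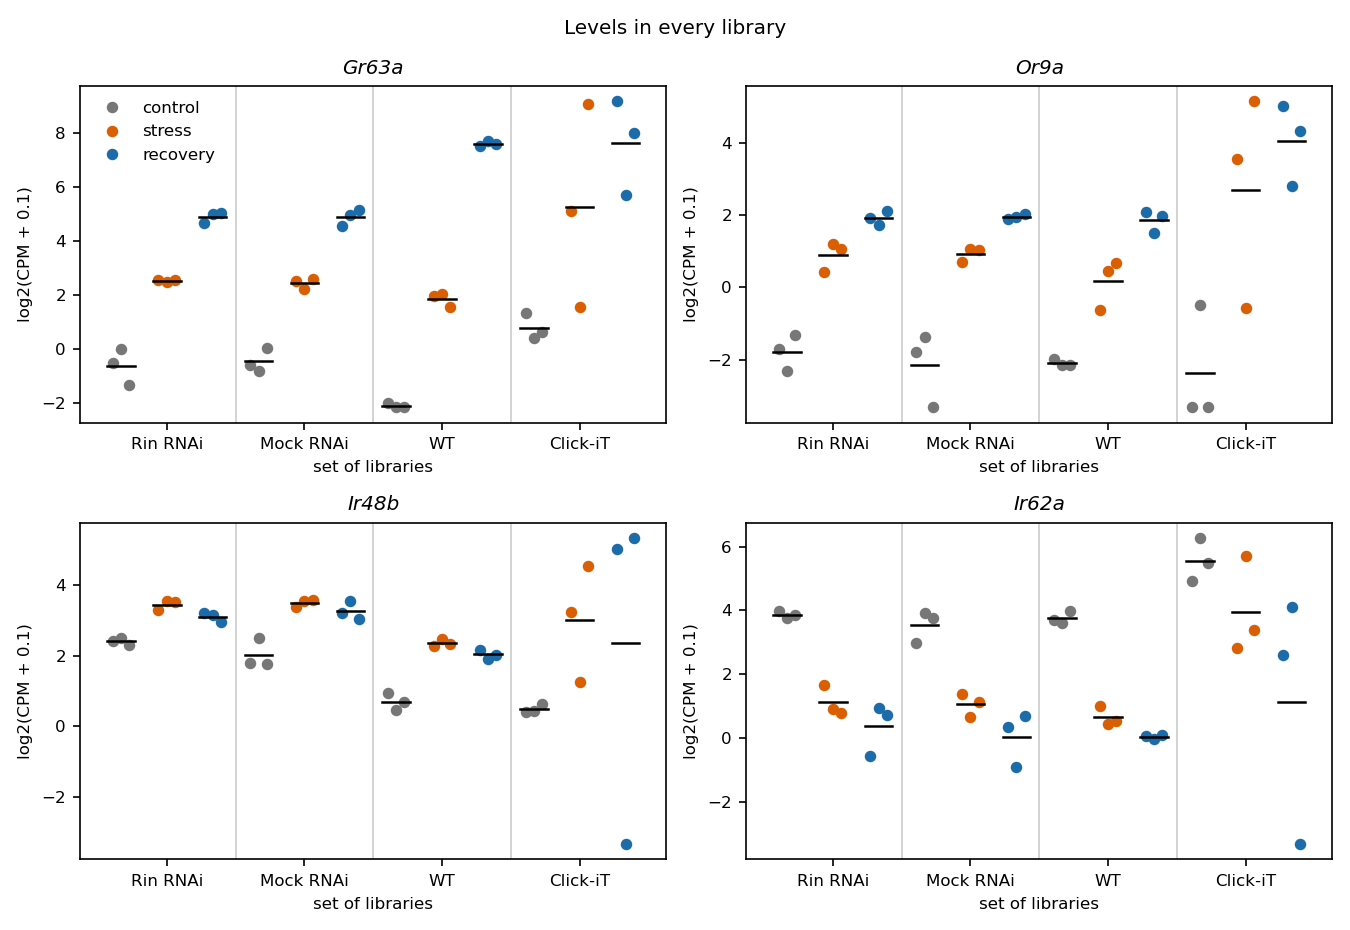
CPM of Gr63a, Or9a, Ir48b and Ir62a in every library on a log axis, with Rin, Mock, WT and Click-iT sets side by side, control, stress and recovery in order, and bars at the group means. Gr63a in WT cells lies at 0.126 to 0.152 CPM in control and at 182 to 209 CPM in recovery, while Ir62a in WT cells lies at 12.1 to 15.7 CPM in control and at 0.881 to 0.961 CPM in recovery.

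Gr63a lies on the minus strand of chromosome arm 3L at 3894999 to 3896603 in dm6 coordinates, with 3 exons of 1470 bases together. The gene upstream of it on the same strand is Ccz1, 840 bases away, which encodes a subunit of the exchange factor that activates Rab7 on endosomes. Upstream of Ccz1 is Ubi-p63E, a polyubiquitin gene. The kit does not mark strand and the strand setting of the counting is not given in the sources used here.

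Ubi-p63E rose in stress by 1.60 in Rin, 1.52 in Mock and 0.85 in WT cells on the log2 scale, and in recovery by 1.57 in Rin, 1.61 in Mock and 1.70 in WT cells. Ccz1 did not rise in stress. Its log2 value there was -0.22 in Rin and -0.32 in Mock cells, both uncalled, and it fell by 0.29 in WT cells. In recovery Ccz1 rose by 0.92 in Rin, 0.74 in Mock and 2.66 in WT cells, and the Gr63a value was likewise the largest in WT cells. Fie, the convergent gene that ends 165 bases from Gr63a, averaged 10.3 ± 1.1 CPM in WT recovery and 7.85 ± 1.2 CPM in WT control cells (SD, n = 3 each).

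Per length, the Gr63a level was 84.7 to 107% of that of Ccz1 in Rin recovery, 97.1 to 103% in Mock recovery and 105 to 118% in WT recovery libraries. In the control libraries the same share was 1.87 to 5.42% in Rin, 2.88 to 5.03% in Mock and 0.449 to 0.518% in WT cells. In recovery the level of Gr63a thus lay close to that of Ccz1 in each poly(A) set, although WT cells held several times more of both. Whether reads from Ubi-p63E or Ccz1 transcripts enter the Gr63a count was not tested.

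A row of gustatory receptor genes was higher in WT recovery, at levels far below Gr63a, which was already up in stress. Gr93d, Gr93c and Gr93b lie head to tail on the minus strand of 3R, at 21845454 to 21846659, 21844014 to 21845265 and 21842521 to 21843765, with gaps of 188 and 248 bases. The gene upstream on the same strand is glec, which encodes the carbohydrate-binding protein gliolectin, 4034 bases from Gr93d. Gr93b was at 0.305, 0.127 and 0.126 CPM in WT control, 0.136, 0.253 and 0.151 CPM in WT stress, and 2.73, 2.90 and 2.61 CPM in WT recovery libraries. It thus stayed at 4 reads over 3 libraries in control and in stress. Gr93c was at 0.610, 0.127 and 0.253 CPM in WT control, 1.22, 0.759 and 0.753 CPM in WT stress, and 2.02, 3.15 and 3.43 CPM in WT recovery libraries.
Gr93d was at 0.762, 0.890 and 0.506 CPM in WT control, 1.09, 0.506 and 1.21 CPM in WT stress, and 2.73, 2.52 and 2.75 CPM in WT recovery libraries. All 3 genes were thus above their stress and control values in each recovery library. All 3 also passed the filter through the recovery libraries alone, so that their fitted WT values are a description.

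In WT recovery against control the fitted log2 values were 3.82 for Gr93b, 3.11 for Gr93c and 1.87 for Gr93d, and in WT stress Gr93c was called higher at 1.49 (adjusted p = 0.0291 by edgeR). The stress call was lost without WT control replicate 2 (1.11), WT control replicate 3 (1.35) or WT stress replicate 1 (1.23). Gr93b and Gr93d had log2 values of 0.03 and 0.34 in WT stress, both uncalled. None of the 3 genes passed the filter in the Rin and Mock fit. Recovery was above control without overlap for Gr93b and Gr93c in Rin cells, at 0.623 ± 0.176 and 0.533 ± 0.381 CPM, against 0.0332 ± 0.0576 and 0.1003 ± 0.00164 CPM (SD, n = 3 each). Gr93d overlapped there, with 0.607 ± 0.0879 CPM in Rin recovery and 0.535 ± 0.0553 CPM in Rin control cells. In Mock cells all 3 were above control without overlap in recovery, with Gr93d at 0.908 ± 0.134 CPM in recovery and 0.335 ± 0.174 CPM in control. The upstream gene glec rose in stress by 1.80 in Rin, 1.62 in Mock and 0.97 in WT cells, and in recovery by 2.19 in Rin, 2.03 in Mock and 2.44 in WT cells. Per length, each of the 3 receptor genes was at 1.48 to 2.28% of the glec level in the WT recovery libraries. Gr93d also shares exonic bases with an antisense RNA gene, asRNA:CR44087, so reads of that pair cannot be told apart.

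**Figure D4:**
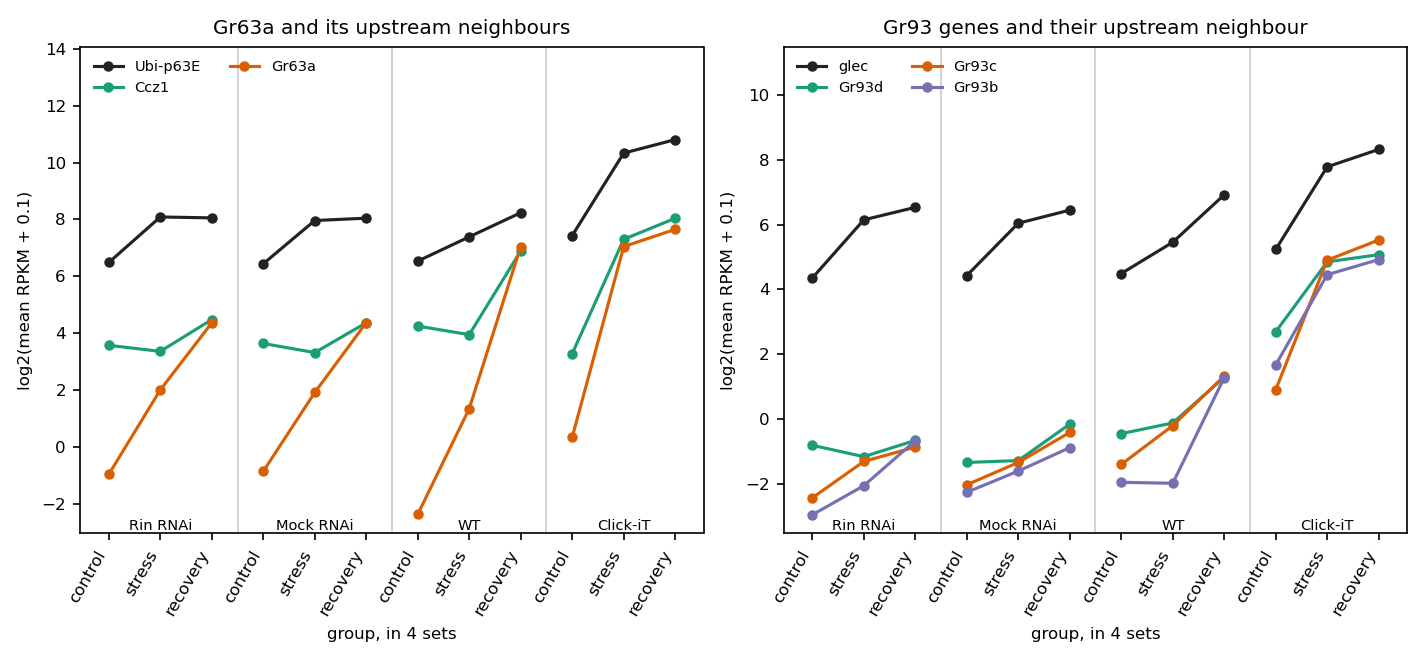
Group means as log2(RPKM + 0.1) of Gr63a with its upstream neighbours Ccz1 and Ubi-p63E, and of Gr93d, Gr93c and Gr93b with their upstream neighbour glec, over the 12 groups. In the recovery groups of Rin, Mock and WT cells the Gr63a point lies near that of Ccz1, at 84.7 to 118% of it, while the Gr93 genes stay far below glec.

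Or9a, an odorant receptor of antennal neurons, rose in all 3 poly(A) sets from a level of 0 to 3 reads per control library. In Rin cells it was at 0.204, 0.0997 and 0.297 CPM in control, 1.25, 2.19 and 1.99 CPM in stress, and 3.68, 3.24 and 4.24 CPM in recovery. In Mock cells it was at 0.192, 0.286 and 0 CPM in control, 1.53, 1.98 and 1.94 CPM in stress, and 3.60, 3.76 and 4.02 CPM in recovery. In WT cells it was at 0.152, 0.127 and 0.126 CPM in control, 0.544, 1.26 and 1.51 CPM in stress, and 4.16, 2.77 and 3.84 CPM in recovery. The steps from control to stress and from stress to recovery were free of overlap in each set, and the recovery ranges of the 3 sets overlapped.

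The log2 fold change of Or9a in recovery was 4.11 in Rin, 4.34 in Mock and 4.58 in WT cells by edgeR. In stress it was 3.10 in Rin, 3.27 in Mock and 2.88 in WT cells. Or9a passed the filter only through stress and recovery libraries, so these fitted values are a description. The 3 reads of the WT control libraries set wide limits, with a ratio of 8.16 (95% interval 2.48 to 42.3) in stress and 26.8 (8.85 to 132) in recovery. Or9a lies on the minus strand of X at 10458186 to 10459676. Its upstream neighbour on the same strand, nocte, 2188 bases away, fell in WT cells by 1.02 in stress and by 0.62 in recovery on the log2 scale.

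Ir48b rose by stress and held most of that rise in recovery. Its values were 5.21, 5.58 and 4.86 CPM in control, 9.62, 11.6 and 11.3 CPM in stress, and 9.09, 8.74 and 7.63 CPM in recovery of Rin cells. In Mock cells they were 3.35, 5.52 and 3.31 CPM in control, 10.2, 11.6 and 11.9 CPM in stress, and 9.22, 11.6 and 8.15 CPM in recovery. In WT cells they were 1.83, 1.27 and 1.52 CPM in control, 4.76, 5.44 and 4.97 CPM in stress, and 4.39, 3.65 and 3.98 CPM in recovery. Every treated library was above every control library of its set. By edgeR the log2 change in stress was 1.06 (SE 0.16) in Rin, 1.44 (SE 0.18) in Mock and 1.72 (SE 0.25) in WT cells, with edgeR adjusted p of 1.13e-05, 6.44e-07 and 1.58e-07. In recovery it was 0.71 in Rin, 1.22 in Mock and 1.39 in WT cells.

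Gr94a showed the same shape at a higher level. It was at 11.4, 11.6 and 10.2 CPM in control, 22.3, 23.9 and 24.5 CPM in stress, and 16.2, 20.8 and 18.9 CPM in recovery of Rin cells. In Mock cells it was at 10.3, 7.05 and 7.01 CPM in control, 19.5, 20.4 and 18.8 CPM in stress, and 15.8, 15.9 and 18 CPM in recovery. In WT cells it was at 1.83, 2.42 and 2.91 CPM in control, 7.08, 5.57 and 4.07 CPM in stress, and 4.39, 4.16 and 4.12 CPM in recovery. Stress and recovery were above control without overlap in each set. Log2 changes in stress were 1.09 in Rin, 1.25 in Mock and 1.21 in WT cells, and in recovery 0.75 in Rin, 1.01 in Mock and 0.80 in WT cells, all called by edgeR. The gene lies on the plus strand of 3R at 23051689 to 23052903, inside p53 on the opposite strand and without shared exonic bases. p53, which encodes a stress-responsive transcription factor, rose in stress by 0.49 in Rin, 0.52 in Mock and 0.23 in WT cells, and in recovery by 0.61 in Rin, 0.54 in Mock and 0.74 in WT cells.

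Further rises were shared by most sets. Gr43a, a fructose receptor that also senses internal nutrients, had log2 fold changes of 1.57 in Rin and 1.30 in Mock stress, both called, and of 0.66 in WT stress, uncalled. In recovery it rose by 1.34 in Rin, 1.55 in Mock and 0.86 in WT cells. The WT recovery call was lost without WT control replicate 2 (0.76), WT recovery replicate 2 (0.77) or WT recovery replicate 3 (0.75). Gr43a shares 155 exonic bases with Dhx15 on the other strand, which fell in WT cells by 0.26 in stress and by 0.31 in recovery.

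Gr47b rose in stress by 1.11 in Rin, 1.11 in Mock and 0.88 in WT cells. In recovery it rose by 1.16 in Rin and by 1.06 in Mock cells, while its WT value of 0.42 was uncalled. Or67b rose in stress by 0.50 in Rin, 0.88 in Mock and 0.75 in WT cells, and in recovery by 1.01 in Rin, 1.01 in Mock and 0.45 in WT cells. With scaling by total library size the Or67b calls in Rin stress (0.34) and WT recovery (0.28) were lost. The WT recovery call was also lost without WT control replicate 3 (0.37). The Rin stress call of Or67b, with an edgeR adjusted p of 0.0482, was lost in 10 of the 18 fits that left out a library, with values of 0.34 to 0.52 in those 10. These libraries were any Rin control replicate, Rin stress replicates 1 and 3, Rin recovery replicate 2, Mock control replicate 2, Mock stress replicates 1 and 3, and Mock recovery replicate 3. Or85f, tested in Rin and Mock cells alone, rose in stress by 1.82 in Rin and 1.85 in Mock, and in recovery by 1.74 in Rin and 1.44 in Mock cells. Its Mock recovery value was 1.11 and uncalled without Mock control replicate 1.

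Ir62a fell in every poly(A) set. It was at 15.6, 13.4 and 14.5 CPM in control, 3.03, 1.77 and 1.63 CPM in stress, and 0.575, 1.83 and 1.55 CPM in recovery of Rin cells. In Mock cells it was at 7.76, 14.9 and 13.5 CPM in control, 2.52, 1.49 and 2.06 CPM in stress, and 1.17, 0.430 and 1.51 CPM in recovery. In WT cells it was at 12.96, 12.1 and 15.7 CPM in control, 1.91, 1.26 and 1.36 CPM in stress, and 0.9496, 0.881 and 0.961 CPM in recovery. Every treated library lay well under every control library, and stress and recovery overlapped in Rin and Mock cells but not in WT cells.

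The log2 fold change of Ir62a in stress was -2.76 (SE 0.27, adjusted p = 2.46e-08) in Rin, -2.54 (SE 0.30, adjusted p = 3.27e-07) in Mock and -3.16 (SE 0.21, adjusted p = 1.23e-16) in WT cells by edgeR. In recovery it was -3.44 in Rin, -3.50 in Mock and -3.85 in WT cells, so that the gene stayed low after the arsenite was removed. By level per length it ranked 5942 of 17068 genes in WT control, 7809 in WT stress and 8815 in WT recovery cells. Ir62a is a gene of a single exon on the minus strand of 3L, at 1529439 to 1531259. It lies in an intron of Iml1 on the same strand, which encodes a subunit of the GATOR1 complex that restrains TORC1 signalling. The log2 fold change of Iml1 in stress was 0.04 in Rin, 0.23 in Mock and -0.11 in WT cells, and in recovery -0.13 in Rin, 0.20 in Mock and -0.21 in WT cells. Iml1 thus moved by a small part of the Ir62a change and in both directions. Per length, Ir62a was at 22.1 to 24.7% of the Iml1 level in Rin, 16.4 to 25.0% in Mock and 18.7 to 24.3% in WT control libraries. In recovery this share was 1.14 to 3.10% in Rin, 0.659 to 2.39% in Mock and 1.60 to 1.75% in WT libraries. In the control captures it was 51.6 to 72.9%. Whether reads from Iml1 transcripts enter the Ir62a count was not tested.

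Ir76a, the receptor gene with the highest control level, fell in WT cells, to 36.05, 36.2 and 36.8 CPM in stress and 29.4, 31.6 and 31.4 CPM in recovery, against 45.8, 49.9 and 49.3 CPM in control. This was a log2 change of -0.42 in stress and -0.65 in recovery. In Rin stress the change was -0.18 and was lost without Rin control replicate 1 (-0.18) or 3 (-0.12), or without Rin stress replicate 1 (-0.16) or 3 (-0.14). In Mock cells Ir76a was not called, with 38.2 to 42.7 CPM in stress and 38.3 to 38.9 CPM in recovery, against 41.1 to 44.4 CPM in control. Ir76a shares 297 exonic bases with CG14102.

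Several calls of small size held in some sets only and depended on the settings. Gr61a was called higher in Mock stress (0.33), Mock recovery (0.26) and Rin recovery (0.28), and lower in WT recovery (-0.30, adjusted p = 0.00813 by edgeR). With scaling by total library size the 3 higher values became 0.16, 0.01 and 0.00 and uncalled, and the WT fall remained called. The WT fall was lost without WT control replicate 3 (-0.24) or WT recovery replicate 1 (-0.23). The Mock recovery call of Gr61a was lost without Mock control replicate 2 (0.24) or 3 (0.25) or Mock recovery replicate 1 (0.16), and its Rin recovery call without Rin control replicate 3 (0.19) or Rin recovery replicate 1 (0.25).
Gr5a, the trehalose receptor, fell by 0.65 in WT stress, and this call was lost without WT control replicate 3 (-0.56). Gr5a shares 1108 exonic bases with the antisense gene asRNA:CR44958. Or19b fell by 0.39 in WT recovery, and this was lost without WT control replicate 2 (-0.37) or WT recovery replicate 3 (-0.32). Ir20a rose by 0.97 in WT recovery, which was lost with total library scaling (0.80), without WT control replicate 3 (0.76) or without WT recovery replicate 2 (0.82). It had 6, 9 and 5 reads in the WT control libraries and passed the filter only through treated ones, so this call is a description.
Gr59f rose in Rin cells by 0.85 in stress and 0.83 in recovery. Its stress call was lost without Rin stress replicate 3 (0.73), and its recovery call with total library scaling (0.56) or without Rin control replicate 1 (0.78), Rin recovery replicate 1 (0.77) or Rin recovery replicate 3 (0.78). Or43b rose by 0.38 in Rin stress and by 0.40 in WT recovery. With total library scaling these values were 0.21 and 0.22 and uncalled. Without Rin control replicate 1 (0.29) or Rin stress replicate 3 (0.32) the Rin call was lost. The WT call was lost without WT control replicate 1 or 2 or any WT recovery replicate, with values of 0.25 to 0.42. Or43b shares 575 exonic bases with Cul1 on the other strand.

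Recovery against stress called 3 of 20 receptor genes in Rin cells, where 30.5% of all genes tested were called. It called 2 of 20 in Mock cells, against 9.33% of all genes, and 7 of 19 in WT cells, against 26.5%. Gr63a and Or9a rose further in all 3 sets. Or9a rose by 1.01 in Rin, 1.07 in Mock and 1.70 in WT cells, and the Mock value was 0.95 and uncalled without Mock stress replicate 1. DESeq2 called 0 receptor genes in Mock recovery against stress, but its own filter on low means left an adjusted p for only 1 of them and for 4947 genes in all, of which 19.3% were called. Gr63a and Or9a were among those without one, with log2 values of 2.48 and 1.06. In WT cells Ir76a (-0.24) and Gr61a (-0.30) fell, and Gr93b (3.79), Gr93c (1.62) and Gr93d (1.53), kept through their recovery libraries, were called higher. The Ir76a call was lost without WT recovery replicate 1 (-0.21). The Gr61a call was lost without WT stress replicate 2 (-0.18) or WT recovery replicate 1 (-0.24). In Rin cells Gr94a fell by 0.33, a call that was lost without Rin stress replicate 2 (-0.32), Rin stress replicate 3 (-0.30) or Rin recovery replicate 1 (-0.24).

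The knockdown of rin was not seen to change receptor genes. Rin against Mock cells called 0 of 20 receptor genes in control, stress and recovery, where 0.0459%, 0.161% and 0.126% of all genes were called. At an unadjusted p under 0.05 the edgeR counts were 1, 2 and 0, and the lowest adjusted p values were 0.459, 0.303 and 0.483. The difference of the responses, Rin minus Mock, called 0 of 20 in stress and 0 of 20 in recovery by edgeR and by DESeq2, with 1 and 0 at an unadjusted p under 0.05 in edgeR, and 0% of all genes were called. For Gr63a this difference was 0.16 (95% interval -1.10 to 1.41) in stress and 0.06 (-1.13 to 1.24) in recovery on the log2 scale. For Ir62a it was -0.22 (-1.13 to 0.69) in stress and 0.06 (-1.03 to 1.14) in recovery. Differences of up to about those bounds cannot be told from 0 in these libraries.

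Between the RNAi experiment and the WT cells the responses differed for some genes. In a joint fit of the Mock and WT libraries, added after the data had been seen, the difference of the stress responses was called for 3 of 21 receptor genes and 26.5% of all genes. In recovery it was called for 6 of 21 receptor genes and 42.6% of all genes. The Gr63a response in recovery was lower in Mock than in WT cells by a log2 difference of -4.76 (SE 0.83, adjusted p = 0.000119 by edgeR). The difference in stress, -1.51, was uncalled (adjusted p = 0.252 by edgeR). Gr63a averaged 0.659 CPM in Mock and 0.135 CPM in WT control cells, the latter from 3 reads in all. In recovery it averaged 30.2 and 194 CPM, so the control levels differed as well. Gr63a passed the filter only through treated libraries, so these fitted differences are a description. Its neighbour Ccz1 differed in recovery by -1.88 (adjusted p = 8.72e-09 by edgeR). The Ir62a responses did not reach a call, with 0.65 in stress and 0.39 in recovery. The level of Gr94a in control cells also stood apart, at 7.01 to 10.3 CPM in Mock against 1.83 to 2.91 CPM in WT libraries, each scaled within its own fit. The sum of the haemocyte markers was 1508 to 1635 CPM in Mock control and 5213 to 5429 CPM in WT control libraries, and its part in these differences was not tested. Mock RNAi and the set in which the cells were handled and sequenced cannot be told apart.

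In the Click-iT captures receptor genes had large fold changes that were not called. Over the 15 tested, the median log2 fold change was 2.59 in stress and 3.12 in recovery, and over all genes tested it was -0.01 and 0.03. Genes near silent in the control captures, such as Gr63a, Or9a, Or45b and Or46a, passed the filter only through treated captures. The filter thus sets part of the receptor medians, which are a description. Other sparse groups lay high as well, with medians of 2.56 and 2.22 over 2 ionotropic glutamate receptor genes and 1.68 and 2.23 over 5 neuron markers in stress and recovery. The 9 haemocyte markers tested had medians of -0.16 and -0.18. The neighbour Ccz1 was at 4.05 in stress and 4.80 in recovery on the log2 scale, both uncalled. Gr63a was at 2.43, 1.24 and 1.44 CPM in control, 34.8, 2.84 and 544 CPM in stress, and 577, 51.8 and 255 CPM in recovery captures. All 6 treated captures were above the 3 controls, and the lowest was stress replicate 2. None of 15 receptor genes was called in stress or in recovery against control, where 0% of all genes tested were called, nor between recovery and stress. At an unadjusted p under 0.05 the edgeR counts were 8, 8 and 0, and DESeq2 called 3, 7 and 0 receptor genes, against 2.04%, 6.53% and 0.0354% of the genes that kept an adjusted p there, 19, 28 and 129 of them receptor genes. The log2 fold change of Gr63a by edgeR was 6.81 (SE 2.00) in the stress captures and 7.43 (SE 2.03) in the recovery captures, with adjusted p values of 0.320 and 0.167. Without stress replicate 3, the highest capture of its group, the stress value was 3.38.

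Of the 9 fits that left out a capture, the one without stress replicate 2 called 4 of 17 receptor genes higher in stress and 4 in recovery, while 4.47% and 4.16% of all genes were called. That capture had the lowest receptor level of its group, so leaving it out raises the stress values, and the calls are a description. Without stress replicate 3, which had the highest, 0 were called in stress and 2 in recovery. The share of all genes called in that fit is not given here, so these counts are not read further. The genes called without stress replicate 2 were the same 4 in stress and recovery, Gr63a, Gr93c, Or46a and Or9a. Their log2 fold changes in stress were 7.36 for Gr63a (adjusted p = 0.0362), 4.56 for Gr93c (0.0375), 5.85 for Or46a (0.0297) and 5.75 for Or9a (0.0344) by edgeR. In recovery they were 7.39 for Gr63a, 4.66 for Gr93c, 5.41 for Or46a and 5.51 for Or9a. Or46a, a receptor of maxillary palp neurons, was at 51.1, 0.852 and 142 CPM in stress and 107, 17.3 and 94.1 CPM in recovery captures, against 1.21, 2.48 and 0 CPM in control captures. It lies wholly within the antisense gene asRNA:CR43467. Ir62a was at 30.3, 77.5 and 44.6 CPM in control, 6.96, 51.7 and 10.3 CPM in stress, and 5.92, 17.3 and 0 CPM in recovery captures, so that stress replicate 2 alone overlapped the controls. Its log2 value in recovery was -2.54 (SE 1.01, adjusted p = 0.190) with all captures. The share of reads that mapped to several places was 70.2 to 94.2% in the captures, against 3.88 to 7.51% in the poly(A) libraries.

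More of the sparse genes had a read after arsenite, at low levels. At the depth of the smallest poly(A) library, 6121664 reads, the expected number of receptor genes with a read lay between 37.9 and 43.8 in Rin control, between 51.7 and 52.9 in Rin stress, and between 55.2 and 57.3 in Rin recovery libraries. It was 44.2 to 45.8 in Mock control, 51.1 to 54.6 in Mock stress and 53.9 to 57.0 in Mock recovery libraries. In WT libraries it lay between 34.5 and 41.0 before stress, between 42.4 and 43.9 in stress, and between 57.9 and 65.4 in recovery. Control, stress and recovery were thus in ascending order without overlap in Rin and WT cells, and stress overlapped recovery in Mock cells. Genes other than receptors moved in the same direction, with 9926 to 9998 detected in WT control, 10310 to 10435 in WT stress and 11171 to 11219 in WT recovery libraries at that depth. The 154 receptor genes without a fit summed to 3.16 to 3.94 CPM in WT control, 4.56 to 5.44 CPM in WT stress and 13.1 to 17.02 CPM in WT recovery libraries, so the added reads were few.

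**Figure D5:**
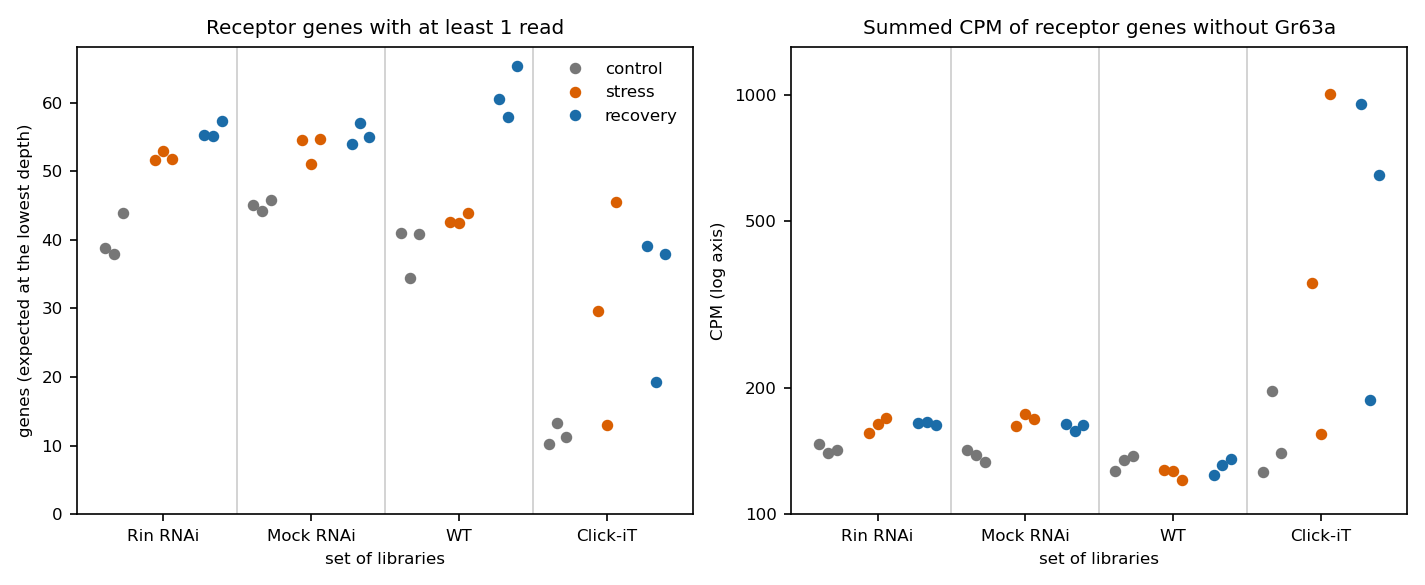
Left, the expected number of receptor genes with at least 1 read when each library is brought to the lowest depth of its set (poly(A) or Click-iT). Right, the summed CPM of all receptor genes without Gr63a on a log axis, with 1 point per library in each of the 12 groups. In WT cells the number with a read is 34.5 to 41.0 in control and 57.9 to 65.4 in recovery, while the summed CPM without Gr63a stays between 120.5 and 138. In Rin and Mock cells that sum is higher in recovery than in control without overlap.

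Among genes outside the fits, 16 reached 10 reads in a library. They are Gr22e, Gr28b, Gr32a, Gr39b, Gr66a, Gr97a, Ir21a, Ir25a, Ir47a, Ir76b, Ir92a, Ir94a, Or42a, Or42b, Or71a and Or82a. Because they were picked by their reads in any library, treated ones included, their ratios and intervals below are a description. Without the filter on low counts edgeR called 29 receptor genes in WT recovery against control and 13 against stress, where 48% and 19% of all genes were called. In Rin cells it called 19 and 5, where 43.8% and 18.8% of all genes were called. In the captures it called 8 in stress and 12 in recovery against control, where 6.02% and 7.12% of all genes were called. Gr97a had 6, 18 and 19 reads in the WT recovery libraries, against 0, 0 and 1 in WT control, a depth-corrected ratio of 40.6 (95% interval 6.91 to 1641). Gr32a, which takes part in bitter taste and in the sensing of male pheromone, had 25 reads in WT recovery against 2 in WT control, a ratio of 11.8 (2.94 to 103). Or82a, which responds to geranyl acetate, had 30 against 3, a ratio of 9.44 (2.94 to 48.4).
Ir21a, a receptor for cooling, was at 0 in all 9 poly(A) control libraries of the 3 sets. In stress it had 16 reads in Rin and 11 in Mock cells, which set against 3 counts over the control group is 5.28-fold and 4.11-fold higher. Such values leave out the counting error of the treated sum. In recovery Ir21a had 11 reads in Rin, 13 in Mock and 14 in WT cells, which in the same way is 4.38-fold, 4.31-fold and 4.41-fold higher. Ir21a reads were thus seen in stress and recovery of Rin and Mock cells, and in recovery alone of WT cells. The co-receptor gene Ir76b had 13 reads in WT recovery and 0 in WT stress and control, 4.09-fold higher against 3 counts over the control group.

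Other genes of chemosensation were as sparse. Of the 4 olfactory partners listed (Orco, Snmp1, Snmp2 and lush) 2 were tested in the Rin and Mock fit and none in the WT fit. The odorant-binding protein gene lush rose in stress by 1.00 in Rin and 1.18 in Mock cells, and in recovery by 1.19 in Rin and 1.24 in Mock cells. Snmp1 fell in Rin recovery. Of 17 ionotropic glutamate receptor genes listed, relatives of the Ir genes, 2 were tested in each poly(A) fit. Ekar, a kainate-type receptor, rose in stress by 1.04 in Rin, 0.88 in Mock and 0.88 in WT cells, and in recovery by 0.92 in Rin, 0.77 in Mock and 1.26 in WT cells. Of the 9 haemocyte markers tested, 9 were called lower in Rin, 8 in Mock and 7 in WT recovery against control. The marker ush was called higher in WT recovery. Of all genes tested, 34.3% were called lower in Rin, 32.8% in Mock and 33.5% in WT recovery. The shares called higher were 35.2% in Rin, 33.1% in Mock and 35.2% in WT recovery. Neuron markers were called in both directions, with 5 higher and 2 lower of 9 tested in Rin recovery, 4 and 1 of 9 in Mock recovery, and 3 and 1 of 6 in WT recovery against control. Their summed level was 111 to 129 CPM in WT recovery and 120 to 129 CPM in WT control libraries. The part of these markers in the receptor values was not tested.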

How the data were processed

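The authors deposited raw read counts per gene for each of the 36 libraries, with 17137 genes and 5 summary lines that were left out here. Per the submitters' processing notes, STAR 2.5.3, HTSeq, DESeq2 and genome build dm6 were used; the annotation version and strand setting are not given in the sources used here. Per the labels, libraries were made with an unstranded kit and read as 50 bases from a single end. The Rin and Mock libraries, the WT libraries and the Click-iT libraries were fitted apart with edgeR 4.0.16 in R 4.3.3 (TMM scaling, filterByExpr, quasi-likelihood test, Benjamini-Hochberg adjustment over all genes kept, called under 0.05). The fits kept 8707, 8123 and 6558 genes. The SE of a log2 fold change is its absolute value divided by the square root of the F statistic of its test. Intervals of fitted log2 values are built from this SE. It can be too narrow where control reads are few, as for Gr63a in WT cells. A joint fit of Mock and WT libraries was added after the data had been seen.

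CPM values are the deposited counts scaled by TMM within each fit. RPKM divides them by exonic length from Ensembl 115 annotation, which matched 17068 of 17137 symbols and all 179 receptor genes, and gave the coordinates. Figures add 0.1 before taking log2. Ratios of small read sums carry exact conditional 95% intervals. Where a group had 0 reads, the ratio was taken against 3 counts over that group and leaves out the counting error of the other sum. Detection was computed at a common depth of 6121664 reads for poly(A) and 169760 for Click-iT libraries. The test was checked on simulated counts for stress against control, with known changes of 1 and 2 on the log2 scale. It recovered 93% and 97% of them in WT, 89% and 99% in Mock and 0% and 39% in Click-iT libraries. The absence of calls in the captures thus says little about such changes. The changed genes were drawn at random from all genes kept, so the rates do not stand for receptor genes with few reads.

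Genes named are Gr63a and Ir62a, those called in any of 17 planned comparisons, other fitted receptor genes, and those with 10 reads in a library. The genes, marker lists and partner lists were chosen with earlier results of these data known. Alternatives were RLE size factors, total library size, no filter on low counts, DESeq2 1.42.0, fits of only the groups compared, a replicate block and leaving out each library. A search of promoters for motifs was not run, and the authors' own comparison tables were not used here.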

Additional observations from a re-analysis of the deposited data

Results flagged for a closer look

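The responses to arsenite differed between Mock and WT cells for a few receptor genes in the joint edgeR fit, each value being the log2 response of Mock cells minus that of WT cells. WT and Mock cells belong to separate sets, so RNAi and set cannot be told apart.

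In recovery Gr63a differed by -4.764, with a rise in all 3 libraries of both sets. It had 3 reads in all in WT control and passed the filter only through treated libraries, so this value is a description. Gr59f differed by -2.891 in stress and -2.067 in recovery. It was at 1.10, 0.743 and 1.70 CPM in stress and 1.91, 2.37 and 2.11 CPM in recovery of Mock cells, against 1.72, 1.43 and 1.06 CPM in their control. In WT cells it was at 0.544, 0.759 and 1.51 CPM in stress and 0.831, 1.26 and 0.686 CPM in recovery, against 0.152, 0.127 and 0.126 CPM in control, which is 3 reads in all. The recovery difference of Gr59f lost its call without any single WT control library, WT recovery replicate 2 or Mock control replicate 1, and values over all 18 fits that left out a library ranged from -2.24 to -1.80. Or46a differed by -2.501 in recovery, with 2.12, 2.58 and 3.22 CPM in Mock recovery against 3.16, 2.57 and 3.70 CPM in Mock control, and 1.66, 1.26 and 1.24 CPM in WT recovery against 0.305, 0 and 0.506 CPM in WT control.

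Ir76a differed by 0.3683 in stress and 0.5432 in recovery, since it fell in WT cells and was not called in Mock cells. Gr5a differed by 0.8827 in stress, and that call was lost in 8 of 18 fits that left out a library, with values from 0.72 to 0.90. They left out replicates 2 and 3 of Mock control and Mock stress, and replicates 1 and 3 of WT control and WT stress. It was also lost with total library scaling (0.79). Gr61a differed by 0.5873 in recovery. Or43b differed by -0.5196 in recovery, with an adjusted p of 0.0474 by edgeR, and lost the call in 12 of 18 such fits, with values from -0.55 to -0.37. They left out any Mock control replicate, Mock stress replicate 1, Mock recovery replicate 1, WT control replicate 1 or 2, WT stress replicate 2 or 3, or any WT recovery replicate.

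Gr61a in recovery against control was higher without overlap in Rin and Mock cells and lower without overlap in WT cells. Its ratio of mean CPM in Mock cells was 0.2601 on the log2 scale. Or43b in recovery was higher without overlap in WT cells and in Click-iT captures and lower without overlap in Mock cells. Its ratio of mean CPM in WT cells was 0.4156 on the log2 scale. Beyond the Mock minus WT differences above, these contrasts between sets were not tested.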

How the results depend on the processing

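The counts of called receptor genes stayed within 1.5 times of the reported ones in all 19 comparisons with RLE size factors. With total library size only, 18 did so, and Rin recovery against stress called 5. Without the filter on low counts, recovery called 29 genes in WT and 19 in Rin cells against control, and 13 in WT and 5 in Rin cells against stress. The captures then had 8 calls in stress and 12 in recovery against control. DESeq2 called 0 in Mock recovery against stress, where its filter left an adjusted p for 1 receptor gene, and 3 in stress and 7 in recovery of the captures against control. With only the groups compared in the fit, recovery of the captures called 1. The cause of these moves was not tested. The shares of all genes called with total library size only, or with only the groups compared, are not given here.

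Leaving out each library in turn gave, for stress against control, 8 to 13 calls in Rin, 10 to 11 in Mock, 8 to 10 in WT and 0 to 4 in Click-iT libraries. Recovery against control gave 9 to 13 in Rin, 10 in Mock, 12 to 16 in WT and 0 to 4 in Click-iT libraries, the last with 4 without stress replicate 2 and 2 without stress replicate 3. Recovery against stress gave 2 to 5 in Rin (5 without Mock stress replicate 2), 1 to 2 in Mock (1 without Mock stress replicate 1), 6 to 9 in WT and 0 in Click-iT libraries. The Mock minus WT difference gave 2 to 4 in stress and 4 to 6 in recovery. Apart from the capture fit without stress replicate 2, the shares of all genes called in these fits are not given here.

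Signs turned only for uncalled values when a library was left out. For Gr63a, Rin against Mock ranged from -0.46 to 0.26 in control, -0.01 to 0.16 in stress (-0.0085 at the lowest) and -0.17 to 0.13 in recovery, and Rin minus Mock from -0.17 to 0.55 in stress and -0.26 to 0.46 in recovery. For Ir62a, Rin against Mock ranged from -0.27 to 0.25 in stress and -0.038 to 0.71 in recovery, and Rin minus Mock from -0.54 to 0.0357 in stress and -0.32 to 0.43 in recovery. Recovery against stress in the captures ranged from -0.43 to 4.05 for Gr63a and -2.60 to 0.023 for Ir62a. The Ir62a difference Mock minus WT in recovery ranged from -0.0065 to 0.73.

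Replicate numbers did not pair the libraries: same-numbered libraries had deviations that correlated at -0.305 to 0.233 in Rin and Mock, -0.05 to 0.038 in WT and -0.359 to 0.61 in Click-iT libraries. With the replicate number as a block, 13 receptor genes were called in Rin stress and 11 in Rin recovery, 10 in each of Mock stress and Mock recovery, and 10 in WT stress and 15 in WT recovery against control. No other count moved by more than 1. The shares of all genes called with the block are not given here. Depth limits genes under about 10 reads a library, and the spread of the captures limits every value there.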

Other observations

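Sensory partner genes outside the 3 families were mostly silent as well. Of 51 odorant-binding protein genes listed, 4 were tested in Rin and Mock and 2 in WT cells. Obp18a rose in recovery by 0.77 in Rin, 0.81 in Mock and 0.91 in WT cells on the log2 scale, and Obp44a by 1.44 in Rin and 1.47 in Mock cells, all called by edgeR. Of 29 pickpocket (ppk) sodium channel genes, relatives of channels used in taste and touch, 5 were tested in Rin and Mock and 4 in WT cells. Against control, ppk29 fell in recovery by 0.57 in Mock and 0.66 in WT cells, and ppk18 was called in opposite directions in stress, at 0.70 in Mock and -1.01 in WT cells.

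The glial marker repo, a homeobox gene of glia, was close to silent in control cells. It averaged 0.0665, 0.989 and 2.14 CPM in control, stress and recovery of Rin cells, 0.0639, 0.985 and 1.53 CPM in Mock cells and 0.0930, 0.143 and 4.29 CPM in WT cells. The rise in recovery was called by edgeR in all 3 sets, and the rise in stress in Rin and Mock cells. The gene passed the filter only through treated libraries, so these calls are a description.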
